A study of Oryza sativa with 2 samples.

Results

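The large ribosomal subunit genes of rice were followed in leaf RNA of *wlp2s* seedlings and of wild-type (WT) seedlings of the *japonica* cv. Zhonghua11. The *wlp2s* plants come from an EMS mutagenised population of the same cultivar and carry a single-base change in *WLP2*, a pfkB-type carbohydrate kinase family gene whose protein works with the plastid-encoded RNA polymerase. Both genotypes were raised on MS medium in a growth chamber at a constant 32 °C, a temperature at which the mutant seedlings are white. The data comprise 1 library per genotype, so no difference between the genotypes has a replicate check and no test of them was made. The sample labels name the mutant by the gene and not by the allele, and the allele name *wlp2s* is that of the expression table. The second table of the authors, not used here, heads the same values wlp1, so the labels do not agree on the name.

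Members are the loci whose deposited description contains "ribosomal protein L" with a number, "60S" or "50S". This gave 198 loci, and 5 of them in a stretch of plastid gene names on chromosome 10 (LOC_Os10g21180 to LOC_Os10g21430) were set aside, which left 193 of 26715 loci. By the wording of the description, 8 are organelle-type (50S, plastid, chloroplast or mitochondrial) and the other 185 are called cytosolic-type. Most descriptions name a family and no compartment. The cytosolic-type group is therefore mixed, and 20 of its members carry GO terms for the plastid and none for the cytosol, not counting loci named like plastid genes. Among the members are also loci whose description names a second family, such as Gadd45, ClpS or a methyltransferase, 31 in all, and 110 of the 193 carry the KEGG pathway term for the ribosome.

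A plant cell builds ribosomes in the cytosol, in the plastid and in the mitochondrion. The large subunit of each holds the peptidyl transferase centre, the tunnel through which the new chain leaves and the stalk that recruits translation factors. Plastid ribosomes are of the bacterial type. Most of their proteins are encoded in the nucleus and imported, while a minority, with the ribosomal RNAs, is encoded in the plastid genome, and chloroplasts cannot develop without them. Cytosolic ribosomal proteins are typically encoded by several near-identical loci each.

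Counts summed to 9327778 in the *wlp2s* library and 9080323 in the WT library. *WLP2* itself (LOC_Os01g63220) was at 9.10 RPKM in the *wlp2s* library and 6.61 RPKM in the WT library (1.38-fold, interval 1.09 to 1.74). The paper reports the opposite direction, with less *WLP2* mRNA in *wlp2s* than in wild type at normal and high temperature. Its methods name qRT-PCR for selected genes, a measure unlike the RPKM of 1 library per genotype used here. The reason for this disagreement was not tested. A single-base change cannot be checked from a transcript level. Leaf transcripts were plain in both libraries, with a sum of 7476 RPKM in *wlp2s* and 7424 RPKM in WT over 4 loci of the Rubisco small chain. Of all 26715 loci, 0 are described as glutelin or prolamin, so these words could not be used to look for seed transcripts. The wider leaf list (light-harvesting, photosystem and Rubisco small chain, 86 loci) summed to 0.931 of the WT reads in the *wlp2s* library (interval 0.927 to 0.935). Of the 85 of these that reached 1 RPKM in either library, 28 (32.9%) were higher in *wlp2s*, against 50.3% of all loci at that level. The list of seed and pollen terms (62 loci, 49 of them in the lipid-transfer and seed storage superfamily) summed to 1292 RPKM in *wlp2s* and 1468 RPKM in WT. Most of this came from that superfamily, with 1191 RPKM in *wlp2s* and 1372 RPKM in WT. Its wording also covers lipid-transfer proteins, so the sum is not a measure of seed or pollen transcripts. The part of leaf composition in the differences below was not tested. In bulk leaf RNA, fewer cells of a type and less RNA per cell cannot be told apart.

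Levels are in RPKM, which relates reads to the length of the transcript and the size of the library. A difference is that of log2(RPKM + 1), *wlp2s* minus WT, for loci that reached an RPKM of 1 in either library (the filter below). Folds are ratios of counts scaled to depth, *wlp2s* over WT, with exact 95% binomial intervals that cover counting error only and compare these libraries, not the genotypes.

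Large subunit transcripts were slightly more abundant in the *wlp2s* library than in the WT library, and few loci stood far from the rest. The members held 58364 counts in *wlp2s* and 52344 counts in WT, that is 0.626% and 0.576% of all counts, a fold of 1.09 (1.07 to 1.10). Of the 193 loci, 172 passed the filter, and their median difference was 0.07, against 0.00 over all 18639 loci past the filter. The members ran between -0.76 and 0.95. A difference above 0 was found at 114 of the 172 loci (66.3%), against 50.3% of all loci.

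None of the members reached a difference of 1 in size, where 1.79% of all loci were higher and 1.01% were lower. This rests on the pseudocount of 1, since with 0.1 there was 1 member higher (LOC_Os03g54040) and 5 lower (the 5 loci named L23.1, which share reads). At a size of 0.5, 9 members were higher (5.23%, against 8.71% of all loci) and 7 were lower (4.07%, against 6.1% of all loci). Both shares are below those of all loci. The counting intervals were more one-sided. The interval lay above 1 at 35 members (20.3%, against 16.1% of all loci) and below 1 at 3 members (1.74%, against 15.4% of all loci). Intervals narrow with depth, and the loci differ in depth. Among the 142 members with at least 100 counts over both libraries, 24.6% had an interval above 1 and 1.41% below 1, against 18.4% and 18.3% of all loci with that many counts.

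**Figure D1:**
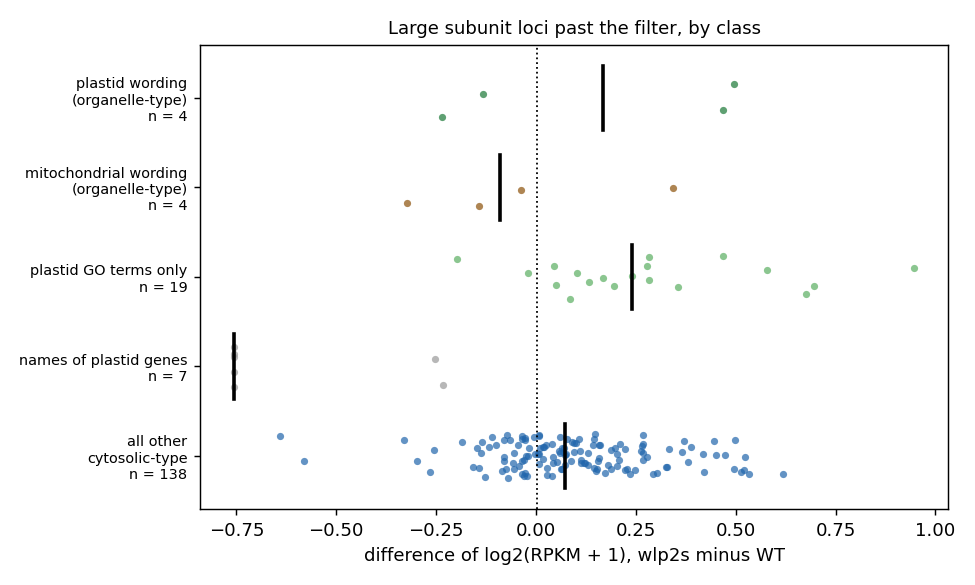
Difference of log2(RPKM + 1), *wlp2s* minus WT, for the 172 large subunit loci past the filter, in 5 classes; each point is a locus, the black bar is the class median, and the dotted line is the median of all loci. The plastid GO class (median 0.24) lies to the right of the other cytosolic-type loci (median 0.07), and 5 points of the plastid gene names coincide at -0.76.

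The 8 organelle-type loci did not move together. Their median difference was -0.08, and 3 of the 8 were above 0, whereas their summed reads gave a fold above 1 (1.17, 1.08 to 1.27), so the median and the sum differ in direction. The differences ran from -0.23 to 0.50 at the loci with plastid wording and from -0.32 to 0.34 at those with mitochondrial wording, so the sets overlap. Organelle-type loci took 2.24% of all large subunit reads in *wlp2s* (2.13% to 2.37%) and 2.08% in WT (1.96% to 2.21%).

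Of the 4 loci with plastid wording, 2 account for the sum. LOC_Os03g03020, described as plastid ribosomal protein L11, was at 39.4 RPKM in *wlp2s* and 27.7 RPKM in WT (1.43-fold, 1.22 to 1.67). Its GO terms name both the plastid and the cytosol. In bacteria, L11 sits at the base of the stalk. LOC_Os01g17150, plastid-specific 50S ribosomal protein 5, was at 64.9 RPKM in *wlp2s* and 46.7 RPKM in WT (1.39-fold, 1.20 to 1.62). Proteins of this kind belong to the chloroplast subunit and have no bacterial counterpart.

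The other plastid-specific protein did not share this. LOC_Os11g34940, plastid-specific 50S ribosomal protein 6, had 65 counts in *wlp2s* and 70 in WT, and its fold of 0.904 had an interval of 0.635 to 1.29. LOC_Os01g14830, worded "ribosomal protein L3 plastid" but with a GO term for the mitochondrion and none for the plastid, was at 3.94 RPKM in *wlp2s* and 4.81 RPKM in WT. All 4 loci together had 939 counts in *wlp2s* and 701 in WT (1.30-fold, 1.18 to 1.44).

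The 4 loci with mitochondrial wording had 371 counts in *wlp2s* and 390 in WT (0.926-fold, 0.801 to 1.07). LOC_Os12g14080, L37, was at 20.5 RPKM in *wlp2s* and 25.9 RPKM in WT (0.793-fold, 0.637 to 0.986). LOC_Os02g40490 (L27) was at 11.5 RPKM in *wlp2s* and 12.8 RPKM in WT. LOC_Os03g10930 (L51/S25/CI-B8 family) had 87 counts in each library. The words L51/S25/CI-B8 also cover a small subunit protein and a subunit of respiratory complex I. LOC_Os10g32870 (L11), whose GO term is for the cytosol, was the exception in direction, at 18.8 RPKM in *wlp2s* and 14.6 RPKM in WT, with an interval that includes equal levels (1.29-fold, 0.914 to 1.82). Over the 8 members with a GO term for the mitochondrion (a set that shares 1 locus with the mitochondrial wording and leaves out loci named like plastid genes), the median difference was -0.02 and the summed fold was 0.991 (0.885 to 1.11).

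**Figure D2:**
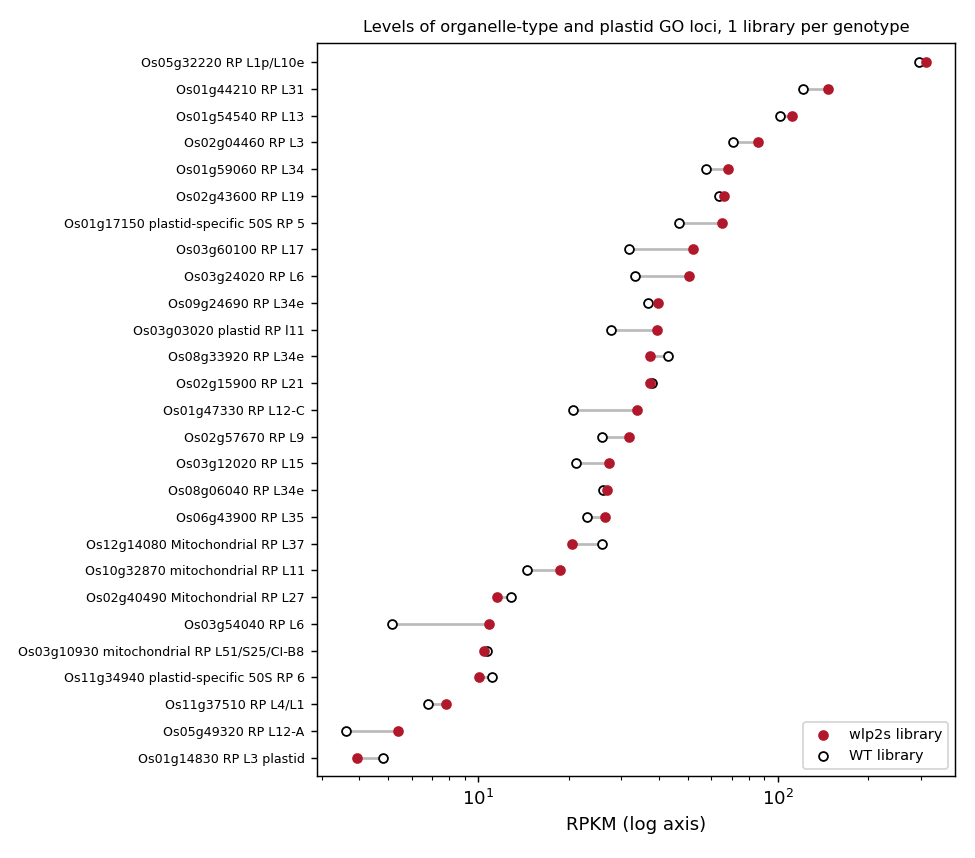
RPKM on a log axis in the *wlp2s* library (filled) and the WT library (open) for 27 loci, the 8 organelle-type loci and the 19 loci past the filter with plastid GO terms and no cytosol term. The filled point is the right-hand one at most plastid loci, and the widest gaps are at Os03g54040, Os03g60100 and Os01g47330.

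The wording misses most nuclear genes of the plastid ribosome, so the GO terms of the files were read as well, a grouping chosen after values had been seen. Among the cytosolic-type loci, 20 have a GO term for the plastid or thylakoid and none for the cytosol, loci named like plastid genes left aside, and 19 of them passed the filter. Of these 19, 17 had a difference above 0 (89.5%, against 50.3% of all loci), the median was 0.24, and 4 were higher by 0.5 (21.1%, against 8.71% of all loci). The interval lay above 1 at 11 of the 19 and below 1 at 0 (57.9% above, against 16.1% of all loci). Among the 18 with at least 100 counts, the share above 1 was 61.1%, against 18.4% of all loci with that many counts. The members of the class were at 5.40 to 313 RPKM in *wlp2s* and 3.62 to 295 RPKM in WT.

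The group is not homogeneous. It includes 3 loci of the L34e superfamily, a family name of cytosolic ribosomes, and without them the median of the other 16 was 0.28. Loci with plastid and no cytosol terms that are not large subunit members (2325 past the filter) had a median of -0.02, with 47.4% above 0. The summed fold of the 20 loci was 1.14 (1.11 to 1.17), and 1 locus held 4647 of their 12216 counts in *wlp2s*. This locus, LOC_Os05g32220, L1p/L10e family with a thylakoid term, was the most abundant of all members at 313 RPKM in *wlp2s* and 295 RPKM in WT (1.06-fold, 1.02 to 1.11).

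The 3 largest differences upward of the whole set were in this class. LOC_Os03g54040, L6 family, was at 10.8 RPKM in *wlp2s* and 5.13 RPKM in WT, with 104 and 48 counts (2.11-fold, 1.48 to 3.03). A second L6 family locus, LOC_Os03g24020, was more abundant, at 50.4 RPKM in *wlp2s* and 33.4 RPKM in WT (1.51-fold, 1.31 to 1.74). In bacteria, L6 lies near the site where translation factors bind. The remaining 2 loci of that description, LOC_Os02g01332 and LOC_Os09g31180, which carry cytosol terms, had differences of 0.27 and 0.15.

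LOC_Os03g60100, L17 family, was at 52.1 RPKM in *wlp2s* and 31.8 RPKM in WT (1.64-fold, 1.41 to 1.91). Bacterial L17 lies beside the tunnel exit. Stalk proteins of the L12 type, which recruit translation factors in bacteria, are encoded by 2 loci of the class. LOC_Os01g47330, described as L12-C, was at 33.7 RPKM in *wlp2s* and 20.7 RPKM in WT (1.63-fold, 1.33 to 1.97). LOC_Os05g49320, L12-A, was at 5.40 RPKM in *wlp2s* and 3.62 RPKM in WT, too few reads for an interval clear of 1 (0.901 to 2.69). Both have divided reads, that is, counts that are not whole numbers because reads were shared with other loci.

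Smaller differences were found at further loci of the class. LOC_Os03g12020, L15, was at 27.3 RPKM in *wlp2s* and 21.1 RPKM in WT (1.29-fold, 1.07 to 1.57). LOC_Os02g04460, L3 family, whose bacterial counterpart reaches towards the peptidyl transferase centre, was at 86.1 RPKM in *wlp2s* and 70.5 RPKM in WT (1.22-fold, 1.10 to 1.36). LOC_Os02g57670 (L9) was at 31.8 RPKM in *wlp2s* and 25.9 RPKM in WT, and LOC_Os01g44210 (L31) was at 147 RPKM in *wlp2s* and 121 RPKM in WT. Both intervals lay above 1. The transcripts of LOC_Os01g59060 (L34, 1.19-fold, 1.04 to 1.36) and LOC_Os01g54540 (L13, 1.10-fold, 1.01 to 1.20) were nearer to equal levels.

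Not every locus of the class had an interval above 1. LOC_Os02g15900 (L21) was at 37.4 RPKM in *wlp2s* and 37.9 RPKM in WT (0.987-fold, 0.852 to 1.14). LOC_Os02g43600 (L19 family) was at 65.8 RPKM in *wlp2s* and 63.8 RPKM in WT (1.03-fold, 0.922 to 1.16). With 376 and 632 counts in *wlp2s*, these intervals leave little room for a fold like that of L17. LOC_Os06g43900 (L35) and LOC_Os11g37510 (L4/L1 family) had folds of 1.15 (0.948 to 1.40) and 1.14 (0.865 to 1.51). LOC_Os08g33920, of the L34e superfamily and with divided reads, had a fold of 0.870 (0.733 to 1.03). LOC_Os04g42200, with 2 counts in *wlp2s* and 1 in WT, was not detectable as different at this depth. Counted with the 4 loci of plastid wording, all loci of the class held 22.5% of large subunit reads in *wlp2s* (22.2% to 22.9%) and 21.3% in WT (21.0% to 21.7%).

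**Figure D3:**
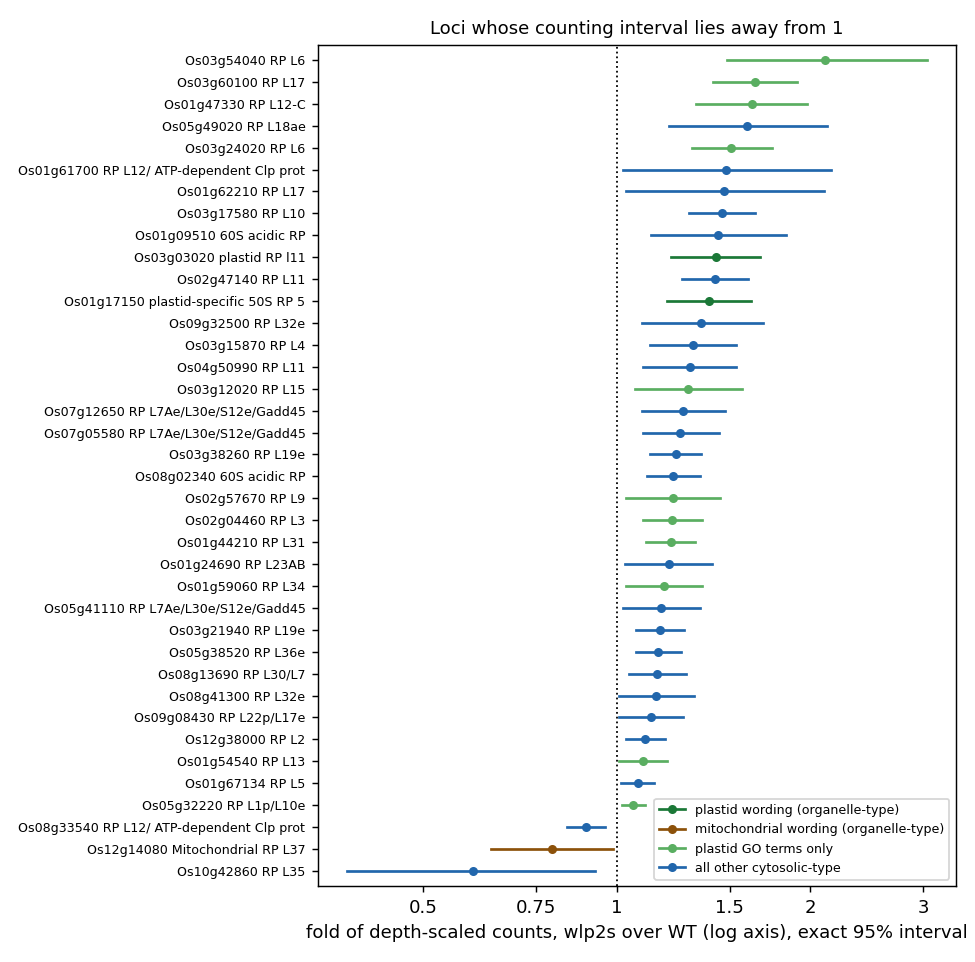
Fold of depth-scaled counts, *wlp2s* over WT, on a log axis with exact 95% binomial intervals, for the 38 large subunit loci whose interval does not include 1, coloured by class. Above 1 lie 35 loci and below it lie 3, Os08g33540, Os12g14080 and Os10g42860.

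Plastid genomes carry their own genes for some large subunit proteins, and 22 members bear the bare names of such genes (L14, L16, L20, L22, L23.1 and L33). By their locus numbers they lie on nuclear chromosomes, and they had 65.4 counts in *wlp2s* and 64.2 in WT altogether. Their values are shared reads rather than separate measurements. The 5 loci named L23.1 (LOC_Os04g16782, LOC_Os04g16812, LOC_Os07g25014, LOC_Os08g15258 and LOC_Os09g24402) have the same counts, 1.33 in *wlp2s* and 3.95 in WT at each, and so does a sixth copy among the loci set aside on chromosome 10. They make up 5 of the 7 members that were lower by 0.5 and are 1 result, not 5. Over all 6 copies there were 8 counts in *wlp2s* and 23.7 in WT (0.328-fold, 0.126 to 0.747).

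Other plastid gene names did not follow L23.1. Over all copies, chromosome 10 included, L16 had 24.6 counts in *wlp2s* and 12.9 in WT (1.85-fold, 0.922 to 3.98), and 2 of its loci carry GO terms for the mitochondrion. L22 had 20.2 and 13.6 counts, L14 had 10.2 and 11.3, and L20 and L33 had 6 and 8 each, in *wlp2s* and WT in that order. Each of these 4 intervals includes 1. Of the 22 loci, 15 did not pass the filter, and the largest count at any of them was 14.2.

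The remaining 143 cytosolic-type loci, of which 138 passed the filter, had a median difference of 0.07, with 94 above 0 (68.1%, against 50.3% of all loci). Their summed fold was 1.07 (1.06 to 1.08). They included 22 loci with an interval above 1 (15.9%, against 16.1% of all loci) and 2 with an interval below 1 (1.45%, against 15.4% of all loci), so the share above 1 was that of all loci. Over all members, organelle-type loci included, those with a cytosol term and no plastid term (67 past the filter) had a median of 0.07. Of these, 68.7% were above 0 (against 50.3% of all loci), and 16.4% had an interval above 1 (against 16.1% of all loci). Members with both terms (21 past the filter) had a median of 0.15, with 18 above 0 (85.7%, against 50.3% of all loci). Their interval lay above 1 at 9 loci (42.9%, against 16.1% of all loci). This share was thus raised at members with both terms as well as in the plastid GO class, and not at those with a cytosol term and no plastid term. Other loci of the files with a cytosol and no plastid term had a median of -0.01 over 1481 loci.

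The 5 most abundant cytosolic-type loci were LOC_Os05g32220, LOC_Os01g67134, LOC_Os05g38520, LOC_Os08g33540 and LOC_Os08g41810, and folds lay on both sides of 1. LOC_Os01g67134, L5, which carries the 5S ribosomal RNA in eukaryotes, was at 270 RPKM in *wlp2s* and 251 RPKM in WT (1.08-fold, 1.02 to 1.15). LOC_Os12g38000, L2 family, a protein of the catalytic core, was at 163 RPKM in *wlp2s* and 147 RPKM in WT (1.11-fold, 1.03 to 1.19). LOC_Os08g41810, L22p/L17e family, which lines the tunnel, was at 178 RPKM in *wlp2s* and 165 RPKM in WT, with an interval that includes 1 (0.984 to 1.19). LOC_Os05g38520, L36e family, was at 219 RPKM in *wlp2s* and 189 RPKM in WT (1.16-fold, 1.07 to 1.26).

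The L19e family had 2 loci with whole-number counts. LOC_Os03g38260 was at 122 RPKM in *wlp2s* and 98.6 RPKM in WT (1.24-fold, 1.13 to 1.35), and LOC_Os03g21940 was at 115 RPKM in *wlp2s* and 98.5 RPKM in WT (1.17-fold, 1.07 to 1.27). The copies were near equal in level and in fold. All 4 loci of L32e, 3 of them close neighbours by their numbers on chromosome 9, were above 0 (differences 0.15 to 0.42), with a summed fold of 1.18 (1.08 to 1.29). All 4 have divided reads, so their shared direction may not rest on separate measurements.

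Both loci of the L11 family (LOC_Os02g47140 and LOC_Os04g50990, which share reads and carry terms for cytosol and plastid) were higher. LOC_Os02g47140 was at 75.3 RPKM in *wlp2s* and 53.0 RPKM in WT, and LOC_Os04g50990 was at 40.1 RPKM in *wlp2s* and 30.9 RPKM in WT. Summed over both, the fold was 1.38 (1.25 to 1.52). LOC_Os03g15870, L4, with terms for cytosol, plastid and thylakoid, was at 32.2 RPKM in *wlp2s* and 24.5 RPKM in WT (1.31-fold, 1.13 to 1.53). L4 lines the exit tunnel.

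The L10 family had 7 loci, and 1 of them stood apart. LOC_Os03g17580, with terms for cytosol and plastid, was at 66.6 RPKM in *wlp2s* and 45.7 RPKM in WT (1.46-fold, 1.30 to 1.64), while 5 of the other 6 had differences of at most 0. LOC_Os05g49020, of the L18ae family, was at 14.4 RPKM in *wlp2s* and 9.01 RPKM in WT (1.60-fold, 1.21 to 2.12). The neighbouring number LOC_Os05g49030, of the L18ae/LX family, was far more abundant and had a difference of 0.07.

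The acidic proteins of the stalk bind elongation factors on cytosolic ribosomes. Of their 6 loci past the filter, the interval lay above 1 at 2 (33.3%, against 16.1% of all loci) and below 1 at 0 (against 15.4% of all loci). With so few loci these shares say little about the stalk proteins as a set. LOC_Os08g02340 was at 135 RPKM in *wlp2s* and 110 RPKM in WT (1.23-fold, 1.11 to 1.35), and LOC_Os01g09510 was at 21.1 RPKM in *wlp2s* and 14.6 RPKM in WT (1.44-fold, 1.13 to 1.84). The most abundant, LOC_Os05g37330, was at 143 RPKM in *wlp2s* and 151 RPKM in WT (0.946-fold, 0.869 to 1.03). LOC_Os01g13080, LOC_Os06g48780 and LOC_Os02g32760 had intervals that include 1. Over all 8 loci, of which 6 passed the filter, the summed fold was 1.06 (1.00 to 1.13).

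A difference of 0 or below was found at 58 of the 172 members, and 3 of them had an interval below 1, LOC_Os12g14080 (mitochondrial L37) and 2 cytosolic-type loci. LOC_Os10g42860, an L35 locus with neither a plastid nor a cytosol term, had 35 counts in *wlp2s* and 57 in WT (0.598-fold, 0.381 to 0.926). LOC_Os05g38580, L17 family, had 8 counts in *wlp2s* and 15 in WT, too few to show a difference (0.191 to 1.30). LOC_Os08g33540 was at 193 RPKM in *wlp2s* and 215 RPKM in WT (0.896-fold, 0.836 to 0.959). Its description joins L12 with the protease adaptor ClpS, so its place in the ribosome is uncertain, and its reads are divided. Among cytosolic-type loci that reached 5 RPKM in either library, the next lowest were LOC_Os01g59950 (L34e), LOC_Os05g45220 (L20) and LOC_Os08g39500 (L31e), and their intervals include 1.

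Besides LOC_Os03g17580 and LOC_Os05g49020, the remaining cytosolic-type loci without a plastid-only term that were higher by 0.5 were LOC_Os01g62210 (L17 family, 83 counts in *wlp2s* and 55 in WT), LOC_Os01g61700 (L12/ClpS, 76 and 50 counts in that order) and LOC_Os10g03540 (L7Ae/L30e/S12e/Gadd45 family, 18 and 10 counts). The last of them has an interval that includes 1 (0.767 to 4.25). Its family, which also covers nucleolar proteins, has 13 member loci with differences of -0.07 to 0.52.

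**Figure D4:**
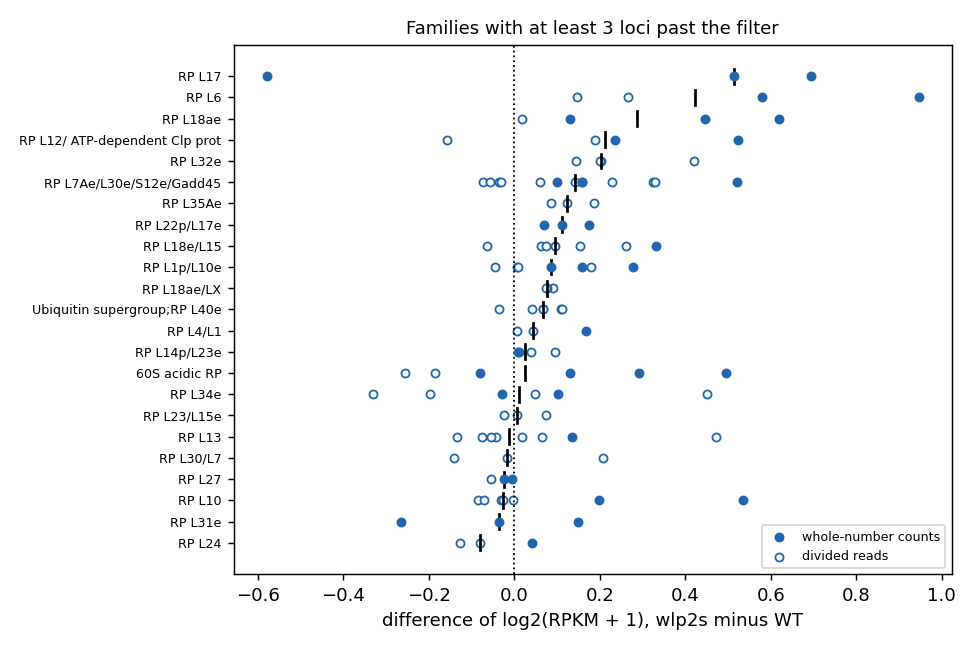
Difference of log2(RPKM + 1), *wlp2s* minus WT, for the loci of the 23 families with at least 3 loci past the filter, ordered by family median (black bar); filled points have whole-number counts and open points have divided reads. Loci of 1 description often lie on both sides of 0, and the L17 and L6 families reach farthest.

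Of the 69 descriptions among the members, 44 name several loci. In 39 of these, at least 2 loci passed the filter. All such loci were above 0 in 16 descriptions, none was above 0 in 2 (L27 family and L23.1), and the signs were mixed in 21. Copies of a family share reads, and counts were not whole numbers in both libraries at 113 of the 193 members. The 6 loci that encode ubiquitin fused to L40e, from which the ribosomal protein is released by cleavage, illustrate a family with little difference (-0.03 to 0.11, summed fold 1.04, 0.95 to 1.15).

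The small subunit, read from its own list of 137 loci, had a median of 0.05 over 115 loci past the filter and a summed fold of 1.08 (1.07 to 1.09), beside 1.09 for the large subunit. Small subunit loci with plastid and no cytosol terms summed to 1.39-fold (1.34 to 1.43). Their median of 0.08 is over 25 loci that include many copies of plastid genes. Those with cytosol terms summed to 1.04-fold (1.02 to 1.05).

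Lists of genes that make or serve ribosomes were read beside the members, with no test of a difference between lists. Ribosome assembly factors (31 loci past the filter, found by words such as nucleolin and fibrillarin, proteins of the nucleolus) had a median of -0.03 and a summed fold of 0.958 (0.929 to 0.987). Cytosolic translation factors (26 loci) had a median of -0.03 and a summed fold of 0.981 (0.955 to 1.01). The list meant for organelle translation factors (21 loci) had a median of 0.01 and a summed fold of 1.08 (1.06 to 1.10). Its words, such as elongation factor Tu or G, name no compartment. Factors of the cytosol may therefore be in this list and missing from the cytosolic one. In these 3 lists, 0 loci were higher by 0.5 (8.71% of all loci), and 3 assembly factors were lower by 0.5 (6.1% of all loci).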

How the data were processed

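Leaf RNA was sequenced single-end, 1 library for each genotype. TopHat, Cufflinks and Cuffdiff are listed in the processing notes of the submitters, without version or role. The genome build, annotation release and counting tool are not given in the sources used here. The authors deposited estimated counts per transcript model (36450 models), partly fractional, and RPKM values, each a count divided by model length and by the library total (the factor ratio between libraries equals the ratio of totals, 0.973). A second deposited table with the authors' fold changes, P-values and FDR was not used.

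Models were summed to 26715 loci. The pseudocount was 1, the filter required an RPKM of 1 or more in either library, and counts were rounded for the intervals. Whole-number calls used a tolerance of 0.001. A count of 0 would allow up to 3 counts. No molecular identifiers are described for the reads, so intervals cover counting error only. Named loci are, per wording group and with an RPKM of at least 5, the 5 farthest each way and the 5 most abundant, every locus past a difference of 0.5, the plastid gene names and the stalk proteins. Further loci were named after their values were seen. Members and lists were chosen with earlier results of these data known. Alternatives to the pseudocount, filter, scaling, unit, divided reads, members and size rule were computed. The GO grouping was added after the data were seen. Of the locus IDs, 0 matched the RefSeq table, so no symbols or sequences are given. Python 3.11.15, numpy 2.4.6, pandas 2.3.3, scipy 1.17.1 and matplotlib 3.10.9 were used, and the procedures were tested on simulated data.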

Additional observations from a re-analysis of the deposited data

How the results depend on the processing

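Of the 84 alternative values, 73 stayed near the reported ones. With a pseudocount of 0.1, 1 member was higher and 5 were lower by the size rule of 1, and with a size rule of 0.5, 9 were higher and 7 were lower. With whole-number counts only, the cytosolic-type median was 0.15, 55 of 78 loci were above 0, and the share of reads was 4.40% in *wlp2s* and 4.23% in WT at organelle-type loci, and 38.5% in *wlp2s* and 38.0% in WT at plastid GO loci, since fewer loci remain. Without loci naming a second protein family these shares were 2.37% in *wlp2s* and 2.19% in WT, and 23.7% in *wlp2s* and 22.8% in WT. The organelle-type median of -0.08 became 0.17 over the 4 loci of plastid wording. Over the alternatives, the plastid GO median ran from 0.17 to 0.28 and the cytosolic-type median from 0.07 to 0.15. The pseudocount, filter, scaling and unit do not enter the shares of reads, so no such values were computed. No paired analysis was possible because each genotype has 1 library. Counts near 10 or below, as at the plastid gene names, resolve only severalfold differences.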
